A study of Mus musculus with 7 samples.

Results

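Disease-associated microglia genes were followed in the myeloid cells of mouse GL261 glioma. The set was the named list Apoe, Trem2, Tyrobp, Lpl, Gpnmb, Cst7, Axl, Itgax, Clec7a and Cd9, and members were the rows of the gene tables that carry these symbols. Of the 10 named genes, 9 had a row among the 32285 genes, and Clec7a was not analysed here. GL261 is a mouse glioma line grown in the brain. CD45+ DRAQ7- cells (live leukocytes) were sorted from the tumour-bearing left hemisphere at day 21 after implantation and profiled by droplet 3′ single-cell RNA-seq, in which each unique molecular identifier (UMI) marks 1 captured transcript. All mice were wild-type females of 8 to 9 weeks. The 4 treatment groups were untreated mice (1 library), mice given PT2385 at 10 mg/kg (2 libraries), mice given immune checkpoint blockade (ICB) with αPD-1 and αTIM-3 antibodies (2 libraries), and mice given PT2385 and ICB together, called the combination (2 libraries). PT2385 is an inhibitor of the hypoxia-inducible factor HIF-2α, and treatment began on day 7. The protocol gives a drug course of 21 days from then, which would run past the harvest on day 21, so the length of exposure is uncertain. It names vehicle and isotype control antibodies but not which of these libraries' mice received them. Each library pooled cells of 2 mice, with 5000 cells from each mouse. The replicate is therefore the pool, p-values measure the spread between pools, and the second untreated pool was not analysed here.

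Microglia that meet damaged tissue, lipid debris or tumour lower their homeostatic genes and turn on a lysosomal and lipid-handling programme. TREM2, a surface receptor for lipids and lipoproteins, signals through the adaptor TYROBP, and this signal is needed for the full programme in models of neurodegeneration. Macrophages that enter the brain from the blood carry many of the same transcripts, so in a tumour these genes alone do not tell the cell types apart.

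Cells were therefore assigned by gates of other genes, none of them a member. A cell passed a gate with at least 3 markers of 1 class and at least 2 more than of any other class. Gated myeloid cells could also show at most 1 marker from each of the T, B, natural killer and neutrophil lists. Of 38468 cells kept, 6113 passed as microglia (markers such as P2ry12, Tmem119 and Sall1), 14603 as macrophages (such as Ly6c2, Ms4a7 and Arg1) and 1503 as dendritic cells (such as Flt3, Xcr1 and Ccr7). Summed markers of the microglia gate reached 4173 to 8522 counts per 1000000 UMIs of a class (CPM) in microglia and 143 to 226 in macrophages. These markers define the gate, so that gap follows from the selection. A list of 14 homeostatic genes outside the gate summed to 22999 to 42495 in microglia, 3543 to 4357 in macrophages and 15314 to 18776 in dendritic cells. Libraries held 59839154 to 81960504 UMIs, and median UMIs per cell were 6205 to 7761 in microglia, 8773 to 13681 in macrophages and 8907 to 12471 in dendritic cells. Any pair of libraries shared 3 to 17 cell barcodes, at most 0.309% of the smaller library. Microglia were 6.29% of the untreated library, 10.0% and 11.1% of the PT2385 libraries, 14.5% and 12.9% of the ICB libraries, and 25.8% and 35.9% of the combination libraries. The first ICB pool stood apart among macrophages. There 18.4% of macrophages had at least 2 markers of border macrophages, and its border-marker level of 467 CPM was above the 32 to 151 of the others.

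Levels below are CPM, summed over the cells of a library. Libraries are listed in the order untreated, PT2385 pools 1 and 2, ICB pools 1 and 2, and combination pools 1 and 2. Pool numbers follow the order of the records and pair nothing. T cells of the same libraries are given as a rough reference for RNA free in the droplets. Their gate set no fixed cap on myeloid markers, so they may overstate that background.

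**Figure D1:**
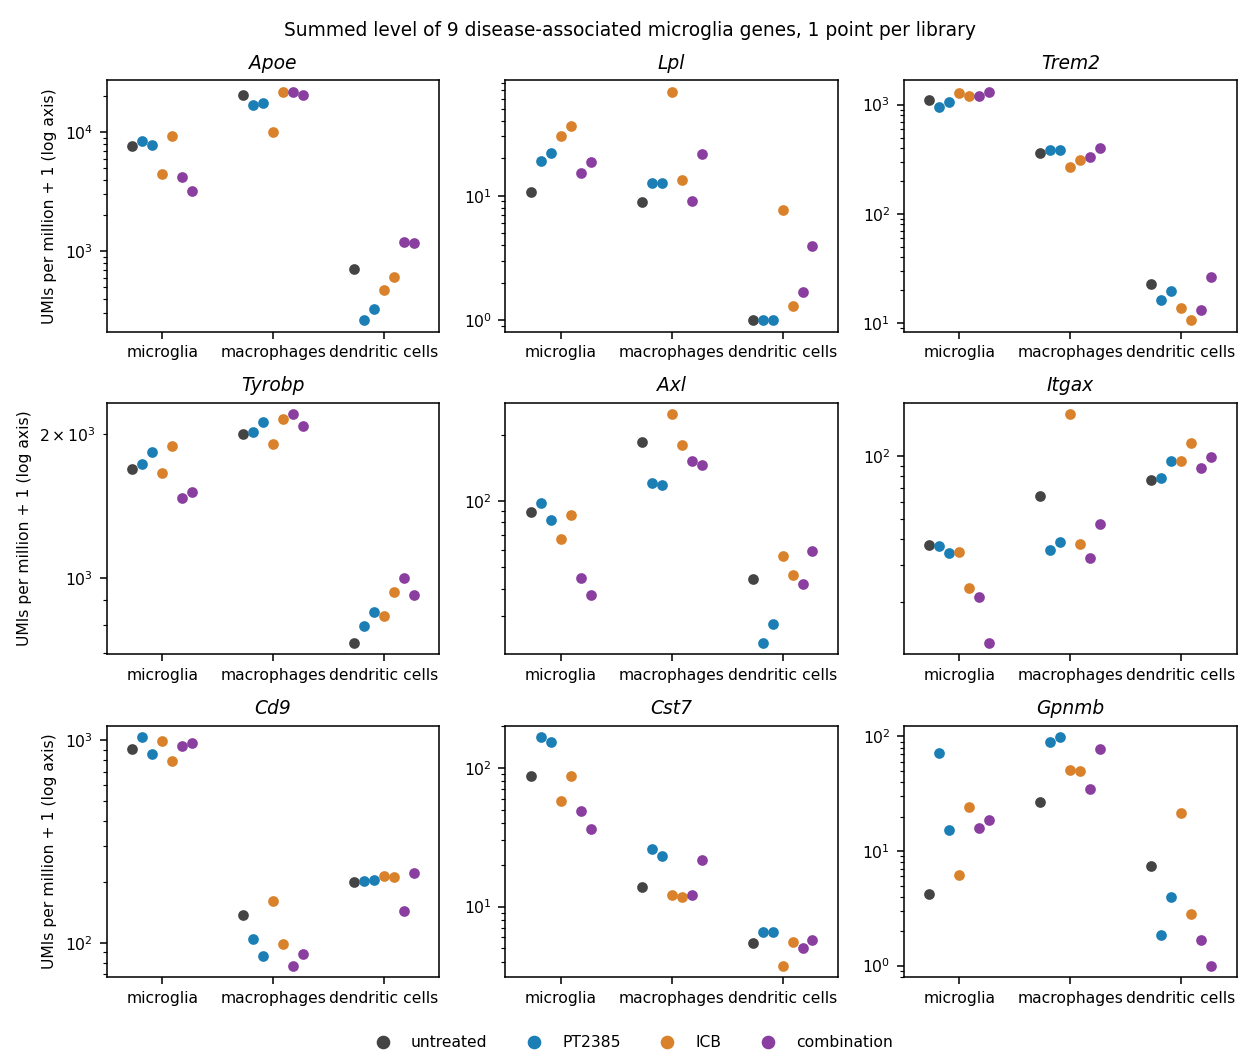
Each panel plots 1 gene, with the cell class on the x axis and CPM plus 1 on a log y axis, 1 point per library coloured by treatment. Trem2, Cd9 and Cst7 sit highest in microglia, Apoe, Axl and Tyrobp in macrophages, and Itgax reaches 156.9 in macrophages of the first ICB pool.

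The 6 promoters printed here belong to the members with a row in the data and a single promoter entry, so that each level can be read beside 1 sequence. They come from the RefSeq table of build GRCm38.p6, which held 8 of the 10 named genes, and run from 200 bases before to 30 bases after the annotated start, 5′ to 3′ on the gene's strand. Trem2 lies at chr17:48346201-48346430 on the plus strand, Gpnmb at chr6:49036318-49036547 (plus), Cst7 at chr2:150570215-150570444 (plus), Axl at chr7:25788704-25788933 (minus), Itgax at chr7:128129350-128129579 (plus) and Cd9 at chr6:125494731-125494960 (minus). Capitals mark matches, on either strand, to 5 short motifs: the hypoxia-response cores ACGTG and GCGTG, the ETS-type GAGGAA bound by PU.1, the CATGTG of MITF and TFE factors, and the AP-1 motif TGANTCA.
Trem2: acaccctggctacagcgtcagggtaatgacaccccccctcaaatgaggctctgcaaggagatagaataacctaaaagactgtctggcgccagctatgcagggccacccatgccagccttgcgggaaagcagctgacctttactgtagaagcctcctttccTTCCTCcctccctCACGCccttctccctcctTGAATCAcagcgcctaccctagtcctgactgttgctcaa
Gpnmb: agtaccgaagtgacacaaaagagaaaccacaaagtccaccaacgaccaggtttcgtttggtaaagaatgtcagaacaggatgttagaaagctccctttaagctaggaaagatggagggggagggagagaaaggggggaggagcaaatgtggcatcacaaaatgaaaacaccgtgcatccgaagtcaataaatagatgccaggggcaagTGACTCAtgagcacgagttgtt
Cst7: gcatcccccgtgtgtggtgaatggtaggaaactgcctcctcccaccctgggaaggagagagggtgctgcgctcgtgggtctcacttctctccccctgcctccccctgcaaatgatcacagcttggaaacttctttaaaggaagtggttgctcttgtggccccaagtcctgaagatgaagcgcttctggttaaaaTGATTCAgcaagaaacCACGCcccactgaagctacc
Axl: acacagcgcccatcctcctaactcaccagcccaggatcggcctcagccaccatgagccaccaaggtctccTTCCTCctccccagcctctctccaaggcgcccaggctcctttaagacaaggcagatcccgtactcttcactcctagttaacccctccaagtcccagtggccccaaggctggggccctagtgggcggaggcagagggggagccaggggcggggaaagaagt
Itgax: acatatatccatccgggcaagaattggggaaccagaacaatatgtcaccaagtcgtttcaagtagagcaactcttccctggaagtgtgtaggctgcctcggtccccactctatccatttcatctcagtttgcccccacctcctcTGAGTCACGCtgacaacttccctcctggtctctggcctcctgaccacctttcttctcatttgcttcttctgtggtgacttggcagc
Cd9: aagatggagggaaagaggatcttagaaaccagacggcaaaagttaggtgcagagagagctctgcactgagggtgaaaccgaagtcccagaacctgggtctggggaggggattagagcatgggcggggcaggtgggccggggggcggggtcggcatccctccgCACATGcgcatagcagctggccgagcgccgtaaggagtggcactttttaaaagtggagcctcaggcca

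The search covered 250 bases before to 50 after each start. The AP-1 motif was present in 4 of the 8 members with an entry (Trem2, Gpnmb, Cst7 and Itgax) and in 8.97% of the 27025 genes of the table. A gene was counted when any of its promoters held the motif, and Apoe has 3 entries and Clec7a 2. The hypoxia core that starts with G was present in 4 of the 8 (Trem2, Cst7, Itgax and Cd9) against 35.2% of all genes, and in Itgax its match overlaps that of the AP-1 motif. The hypoxia core that starts with A was present in 0 of the 8 against 21.8% of all genes. The ETS-type motif was present in 4 of the 8 (Apoe, Trem2, Axl and Clec7a) against 31.3%, and the MITF and TFE motif in 1 (Cd9) against 15.9%. In 1 of the 3 Apoe promoters the ETS-type motif was absent. These are matches of letters in 1 window and no record of binding.

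The first comparison asked how the members are shared out between the 3 myeloid classes. Microglia had higher Cd9, Cst7 and Trem2 than macrophages and lower Gpnmb, Apoe, Axl, Itgax and Tyrobp. Dendritic cells had the lowest levels of most members but more Itgax than either other class. Counts were summed per library and class and tested with edgeR's quasi-likelihood test with the library as a block, and p-values were adjusted by Benjamini-Hochberg over all genes tested. Of 12359 genes tested, 77.2% differed between microglia and macrophages, 76.5% between microglia and dendritic cells, and 64.8% between macrophages and dendritic cells. The members' counts, 8, 8 and 9 of 9, are read against those shares.

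Apoe, which encodes the main apolipoprotein of the brain and a ligand of TREM2, was at 7619.5, 8498, 7873, 4457, 9224, 4178 and 3209.55 CPM in microglia. In macrophages it was at 20505.6, 17085, 17609, 10078, 21891, 21551 and 20489. Every macrophage sum was above every microglial sum, and the first ICB pool was the lowest macrophage library. Microglia were lower by a log2 difference of -1.75 ± 0.32 (SE, 7 libraries; edgeR adjusted p = 0.000118). Dendritic cells had 262.7 to 1201 CPM, within or below the 490.0 to 1990.0 of T cells, so no expression of their own was read from them. Lpl encodes lipoprotein lipase, which releases fatty acids from lipoproteins. Its microglial levels were 9.8, 18.2, 21.1, 29.0, 34.97, 14.3 and 17.8, and its macrophage levels 7.9, 11.7, 11.6, 67.5, 12.4, 8.1 and 20.5. The first ICB pool was the highest macrophage library, and the range of the other 6 overlapped that of microglia. Microglia and macrophages differed by 0.11 ± 0.28 (edgeR adjusted p = 0.729). Only 36 Lpl UMIs were counted in all dendritic cells, with 0 in 3 libraries.

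Trem2 was at 1112, 955.5, 1050.1, 1287, 1203, 1193 and 1313 CPM in microglia and at 265.8 to 404.0 in macrophages, with no overlap. The log2 difference was 1.46 ± 0.13 (edgeR adjusted p = 2.7e-08). The dendritic range of 9.7 to 25.5 was no higher than the 13.6 to 63.1 of T cells. Tyrobp, the adaptor, differed less between the classes. It ranged from 1473 to 1886 in microglia, 1909 to 2199 in macrophages and 733 to 999.8 in dendritic cells, so that the ranges of the 3 classes did not overlap. Microglia were lower than macrophages by -0.59 ± 0.08 (edgeR adjusted p = 3.79e-06) and higher than dendritic cells by 0.79 ± 0.08 (edgeR adjusted p = 1.18e-07). The receptor was thus unevenly shared between microglia and macrophages in the direction opposite to its adaptor.

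Axl, a receptor tyrosine kinase for the clearance of dying cells, was at 36.4 to 97.1 in microglia, 116.8 to 246.8 in macrophages and 21.7 to 58.2 in dendritic cells. Microglia were lower than macrophages by -1.48 ± 0.23 (edgeR adjusted p = 1.57e-05). Their excess over dendritic cells, 0.62 ± 0.25 (edgeR adjusted p = 0.0305), was not kept in microglia with no macrophage marker (-0.16, edgeR adjusted p = 0.613). This difference was called in only 10 of 17 alternative settings. Itgax encodes CD11c, an integrin chain long used as a dendritic cell marker. Its dendritic levels were 75.6, 77.8, 93.5, 93.2, 113.8, 86.2 and 97.4, its macrophage levels 63.4, 34.3, 37.8, 156.9, 37.0, 31.6 and 46.2, and its microglial levels 11.8 to 36.6. The first ICB pool was the only macrophage library above the dendritic range. Without macrophages that had at least 2 border markers it was at 109.2, within that range. Over 17 alternative settings macrophages differed from dendritic cells by -1.01 to -0.59 on the log2 scale, with a call in 14. Microglia were lower than dendritic cells by -1.97 ± 0.29 (edgeR adjusted p = 8.61e-06), and their range overlapped the 16.3 to 28.3 of T cells. Cd9, a tetraspanin of the cell surface, was at 787 to 1036 in microglia, 76.4 to 159.7 in macrophages and 142.7 to 221.6 in dendritic cells. The excess of microglia over macrophages was the largest among the 9 members, at 2.87 ± 0.12 (edgeR adjusted p = 2.45e-12).

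Cst7, which encodes cystatin F, an inhibitor of lysosomal cathepsins, was at 86.8, 165.3, 152.5, 56.9, 86.6, 48.2 and 35.2 in microglia and 10.7 to 25.2 in macrophages. The classes did not overlap, and microglia were higher by 2.10 ± 0.20 (edgeR adjusted p = 6.39e-08). T cells, which are known to express this gene, were at 97.2 to 158.0, so they give no background for it. Gpnmb, a glycoprotein of lysosomes, was at 3.3, 71.0, 14.1, 5.2, 23.5, 14.7 and 17.5 in microglia and at 25.9, 88.8, 97.5, 49.7, 48.9, 33.8 and 76.2 in macrophages. The first PT2385 pool was the high microglial library, and macrophages were the higher class in all 7 libraries. Microglia were lower by -1.94 ± 0.46 (edgeR adjusted p = 0.00111). In microglia with no macrophage marker Gpnmb fell to 0 to 4.2, so that against dendritic cells its difference turned from 1.40 ± 0.67 (edgeR adjusted p = 0.0683) to -2.07 (edgeR adjusted p = 0.0281). The printed Gpnmb promoter holds TGACTCA just after its start.

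**Figure D2:**
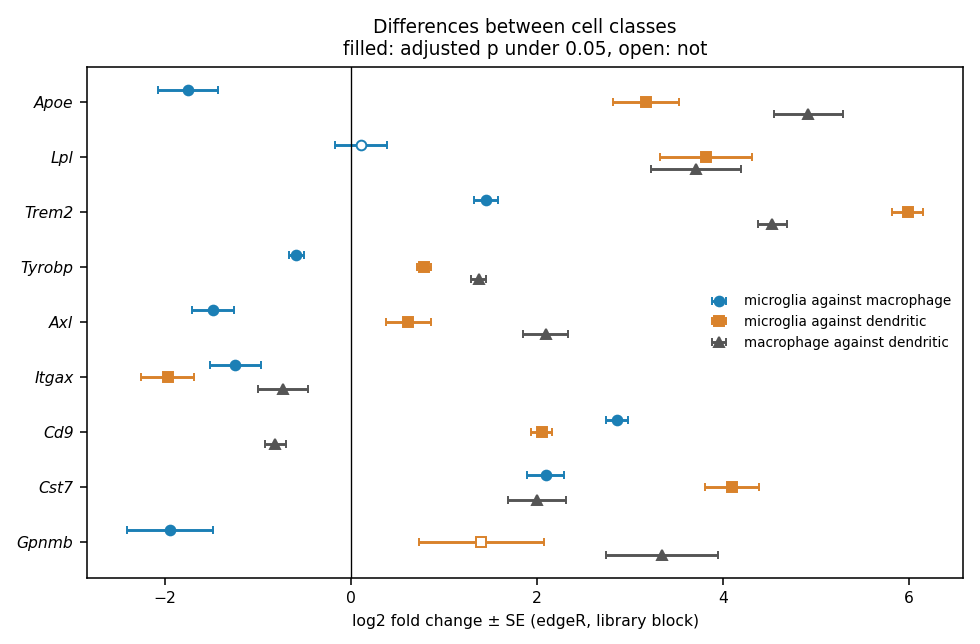
The x axis is the edgeR log2 fold change with its SE for 9 genes (y axis) in 3 contrasts of cell classes over 7 libraries. Filled symbols pass an adjusted p of 0.05. The open symbols are Lpl between microglia and macrophages (0.11) and Gpnmb between microglia and dendritic cells (1.40).

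Shares of cells with a UMI were compared after thinning each cell to 3000 UMIs, which left out 1360 shallower microglia, 931 macrophages and 126 dendritic cells. Trem2 was seen in 86.4% to 95.6% of microglia, 41.7% to 58.2% of macrophages and 2.3% to 4.9% of dendritic cells, against 2.3% to 11.3% of T cells. Cst7 was seen in 3.8% to 19.5% of microglia, Lpl in 2.3% to 5.9%, Itgax in 2.7% to 8.0% and Gpnmb in 0% to 5.9%. Without thinning these ranges were 7.0% to 30.8%, 4.3% to 14.1%, 6.3% to 20.2% and 0.7% to 6.9%. The rarer transcripts were found together. Of the 366 thinned microglia with a Cst7 UMI, 14.2% had an Lpl UMI, 27.0% an Axl UMI and 6.01% a Gpnmb UMI, whereas of the 4387 without one the shares were 2.62%, 8.50% and 0.752%. Apoe was seen in 91.5% and 69.8% of the same cells. These shares pool the cells of 7 libraries and were not tested.

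Members also varied with how many of the 10 gate markers a microglial cell showed. Cells with 5 or 6 markers (775 cells) had a median Cst7 level over libraries of 305.4, against 43.5 in cells with 9 or 10 markers (3493 cells), and were the higher in 7 of 7 libraries. Lpl went from 43.2 to 15.5, higher in 7 of 7 libraries, and Axl from 116.1 to 72.7, also in 7 of 7. Apoe went from 11132 to 6196, higher in 6 of 7 libraries. Gpnmb was higher in 6 of 7 libraries and Itgax in 5. Trem2 ran the other way, from 813 to 1245, and was lower in cells with 5 or 6 markers in 7 of 7 libraries. Cd9 was lower in all libraries but 1, and Tyrobp was higher in 4 of 7. Cells with 3 or 4 markers (730 cells) had a median Cst7 level of 74.5, below the cells with 5 or 6 markers in 7 of 7 libraries. Depth moved with these bins: median UMIs per cell were 1676 to 2235 with 3 or 4 markers, 2132 to 3022 with 5 or 6 and 7524 to 10643 with 9 or 10, and its part in the pattern was not tested.

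**Figure D3:**
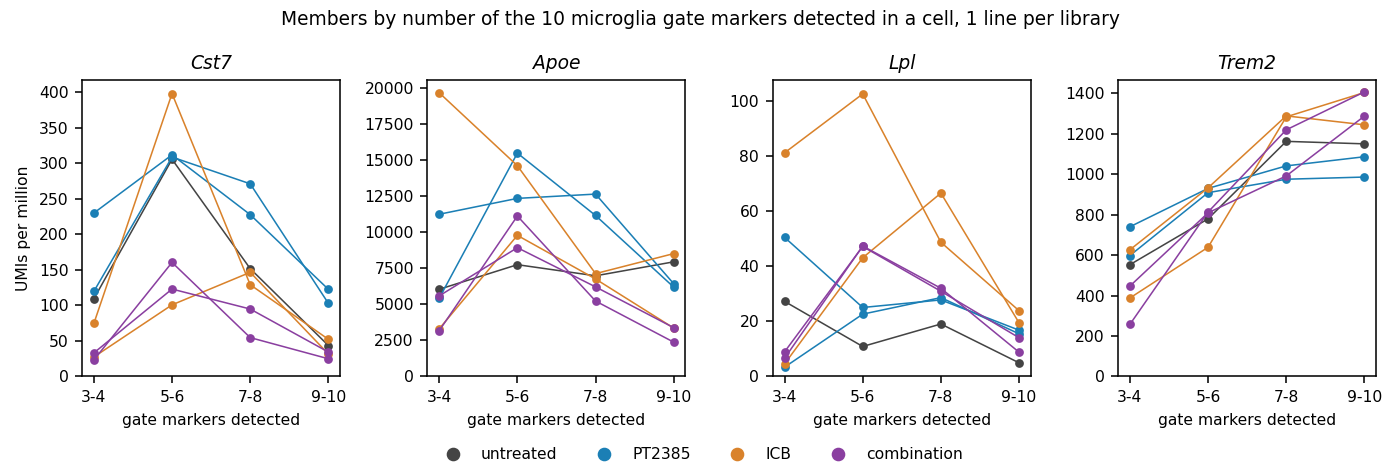
The x axis groups microglia by how many of the 10 gate markers were detected and the y axis is CPM, with 1 line per library coloured by treatment. In each library the Cst7 level is higher with 5 or 6 markers than with 9 or 10, while Trem2 is lower.

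In microglia, effects of PT2385 and ICB were taken from an additive model in which each compares 4 libraries with 3. Neither moved a member past an adjusted p of 0.05. For PT2385, 0% of 12707 genes were called by edgeR, with 1083 at an unadjusted p under 0.05, and 0 of 9 members. DESeq2 called 108 genes and 0 members. For ICB, 5.35% of 12707 genes were called, 241 higher and 439 lower, again with 0 of 9 members, although 7 of 9 were lower. DESeq2 called 3 members (Cst7, Axl and Itgax) where it called 1134 of all genes, 8.92%. The members' median log2 change under ICB was -0.72, against 0.01 over all genes.

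Cst7 had the largest ICB difference, -1.43 ± 0.36 (edgeR adjusted p = 0.0568). Its PT2385 pools at 165.3 and 152.5 were the high libraries, the combination pools at 48.2 and 35.2 the low ones, and the second ICB pool at 86.6 sat beside the untreated library at 86.8. Itgax differed by -0.94 ± 0.25 (edgeR adjusted p = 0.0678), Axl by -0.89 ± 0.23 (edgeR adjusted p = 0.0598) and Apoe by -0.86 ± 0.33 (edgeR adjusted p = 0.148). The interaction of PT2385 and ICB was -1.74 ± 0.38 for Cst7, -0.81 ± 0.44 for Itgax, -1.02 ± 0.29 for Axl and -1.07 ± 0.52 for Apoe. None of these was called by edgeR, but the additive ICB values may average unlike differences with and without PT2385. For Apoe the ICB pools themselves were far apart, at 4457 and 9224, the second being the highest of all 7 libraries. Trem2, at 0.16 ± 0.10, Tyrobp, at -0.22 ± 0.13, and Cd9, at -0.10 ± 0.12, had adjusted p-values of 0.329, 0.318 and 0.625 by edgeR. Without the untreated library the model reduces to the combination against PT2385 alone, another contrast. There edgeR called Cst7 (-2.06, adjusted p = 0.00165), Axl (-1.28, 0.00403), Itgax (-1.26, 0.0186) and Apoe (-1.27, 0.0361), where it called 16.0% of all genes. Without the second ICB pool edgeR called Cst7 (-1.64, adjusted p = 0.00885), Apoe (-1.13, 0.00514) and Axl (-1.02, 0.0111) for ICB, where it called 17.1% of all genes.

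Against ICB alone, 2 members fell in microglia of the combination. Lpl fell by 1.06 ± 0.16 on the log2 scale (edgeR adjusted p = 0.0230), from 29.0 and 34.97 to 14.3 and 17.8, and Axl fell by 1.0002 ± 0.18 (edgeR adjusted p = 0.0415), from 66.4 and 85.8 to 43.9 and 36.4. For each gene both combination pools were below both ICB pools. These are 2 of 9 members where 1.41% of 13453 genes were called, 13 higher and 177 lower. Against the untreated library Axl fell by 1.26 ± 0.22 (edgeR adjusted p = 0.0224), where 3.67% of 13453 genes were called, while Lpl was higher by 0.60 ± 0.26 (edgeR adjusted p = 0.259). Both comparisons share the combination libraries. Leaving out 1 of 5 libraries (either PT2385 pool, the second ICB pool or either combination pool) ended the calls of both Lpl and Axl against ICB, with edgeR adjusted p-values of 0.0617 to 0.137 for Lpl and 0.0923 to 0.287 for Axl, where 0.286% to 0.819% of all genes were called. Without either PT2385 pool or either combination pool the Axl call against untreated also ended (edgeR adjusted p = 0.0518 to 0.124). With the stricter gate both Axl calls ended (edgeR adjusted p = 0.0634 against ICB and 0.0615 against untreated), and in microglia with 9 or 10 markers those of Lpl (0.129) and Axl (0.152 and 0.0761) did too. Without the first ICB pool edgeR called 4 members against ICB and 3 against untreated, where it called 4.42% and 5.32% of all genes. When 1 pool of a group is left out, the other groups supply the spread of the pool that remains. The interaction of PT2385 and ICB called 0.156% of genes and 0 of 9 members in edgeR. Its largest member value with a small error was Lpl at -2.07 ± 0.31 (adjusted p = 0.0676), and DESeq2 called 2 members, Cst7 and Lpl, among 145 genes (1.08%). Without the first ICB pool edgeR called Cst7, Apoe and Lpl for the interaction, where it called 2.87% of all genes.

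Macrophage transcripts inside the microglia gate moved with the same groups. The 12 macrophage markers summed to 1116, 945, 711, 512, 731, 138 and 144 CPM there, with none of the 12 at 0 in any library, against 4709 to 5993 in macrophages. The combination pools had the lowest sums. In T cells, the rough reference for free RNA, the same markers summed to 521 to 1013 CPM. That is above the 138 and 144 of the combination microglia, so T cells were no strict floor. Macrophages were 51.1%, 46.5%, 50.7%, 23.7%, 46.6%, 21.5% and 19.6% of the cells kept in these libraries. The part of free RNA in the microglial sums was not tested. In the microglia with no macrophage marker at all (218 to 1190 cells per library), Axl was at 35.2, 79.6, 65.0, 24.8, 42.1, 36.4 and 27.3 and its difference between combination and ICB was -0.08 (edgeR adjusted p = 0.996). These cells were 46.6% of the untreated microglia and 62.1% and 63.9% of the combination microglia. In each library they had fewer UMIs per cell on average than all microglia, and the part of depth was not tested. Lpl was at 9.5, 13.4, 12.8, 18.3, 32.9, 18.4 and 10.3 there, and differed by -0.87 (edgeR adjusted p = 0.727). Apoe was at 1715, 3612, 2711, 1686.5, 3440.3, 3385 and 1391, and its ICB difference was -0.07 (edgeR adjusted p = 0.958). Cst7 kept its size in these cells, at 84.6, 153.6, 124.4, 34.5, 66.3, 40.2 and 15.8, with an ICB difference of -1.86 (edgeR adjusted p = 0.0639). In these cells edgeR called 0 members in the 5 treatment comparisons, and few genes in all: 0.471% of 10618 for ICB, 0.0269% of 11160 against ICB and 0.0717% against untreated. Markers of choroid plexus epithelium also moved, at 4, 81, 5, 74, 1439, 2011 and 2695 CPM in the microglia gate, and their part in the result was not tested. They varied as widely in the other classes, from 1.4 to 1733 CPM in macrophages, 1.7 to 1657 in dendritic cells and 5.1 to 2405 in T cells.

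**Figure D4:**
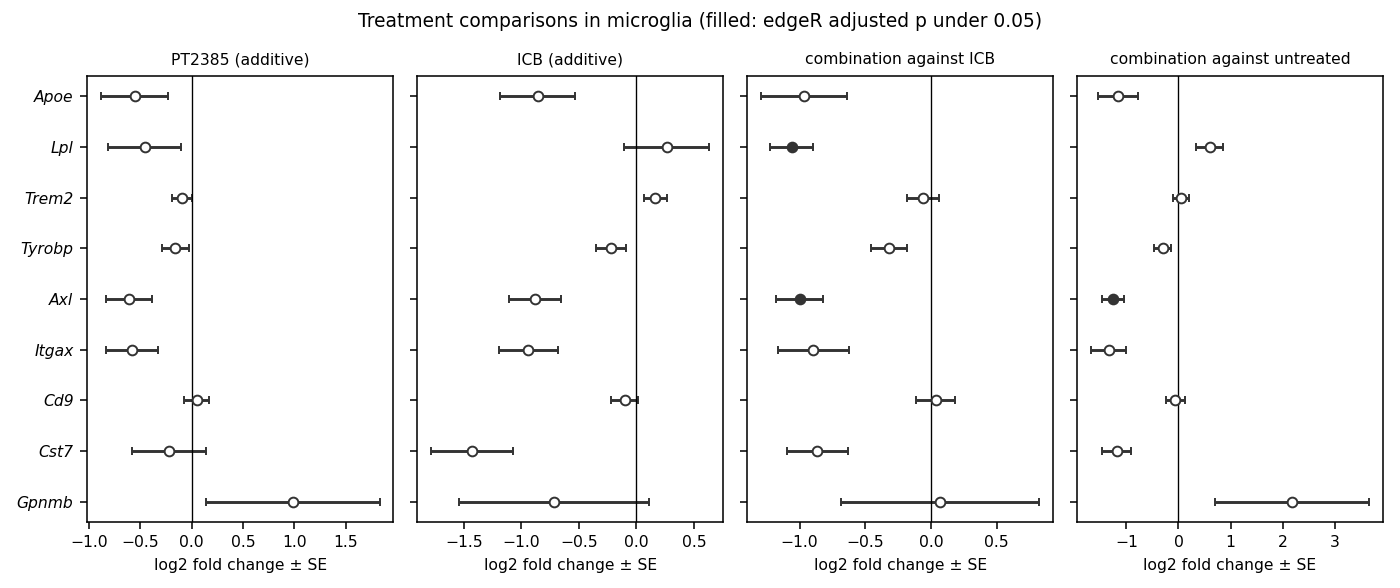
Each panel gives the edgeR log2 fold change and SE of 9 genes in microglia for 1 comparison. The filled symbols are Lpl (-1.06) and Axl (-1.0002) against ICB and Axl (-1.26) against untreated, and Gpnmb has the widest errors.

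**Figure D5:**
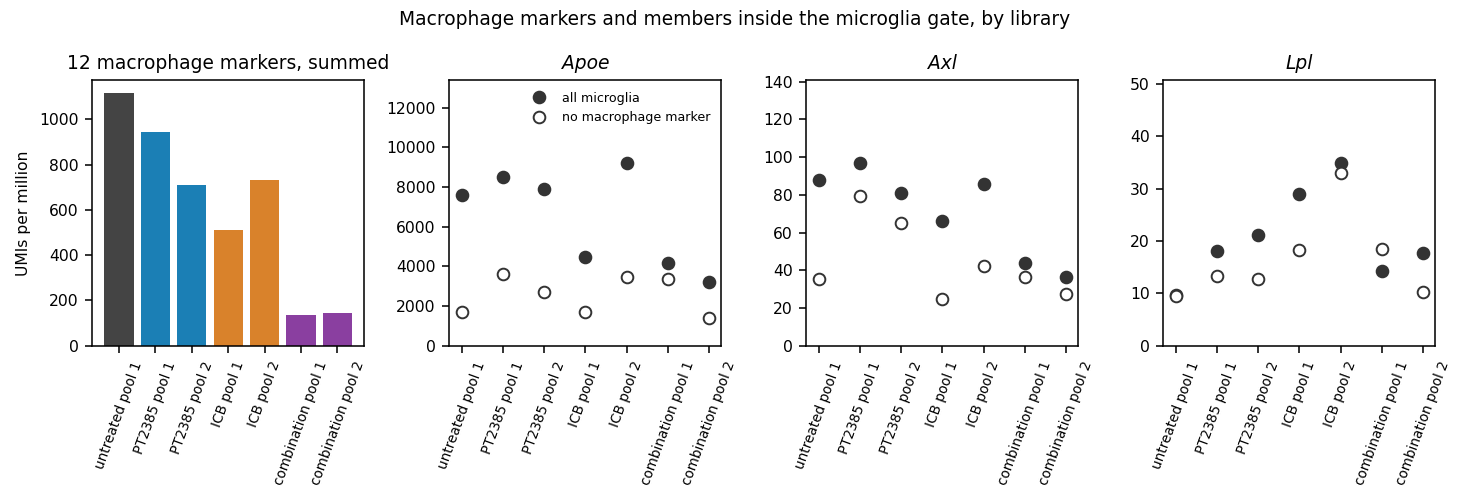
Bars give the summed level of 12 macrophage markers in the microglia of each library, and points give Apoe, Axl and Lpl in all microglia (filled) and in microglia with no macrophage marker (open), in CPM. The bars of the combination pools, 138 and 144, are the lowest, and Axl of the untreated library is at 87.9 in all microglia and 35.2 in those without a marker.

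In macrophages 0 of 9 members were called in any of the 5 treatment comparisons by edgeR. PT2385 changed 0.572% of 14335 genes, 26 higher and 56 lower, ICB 0.00698%, the combination against untreated 0.0132% of 15186, and the combination against ICB and the interaction 0% each, with 1795 and 515 genes at an unadjusted p under 0.05 and 230 and 7 called by DESeq2. Axl was nearest, at -0.54 ± 0.09 under PT2385 (edgeR adjusted p = 0.0549). Its PT2385 and combination pools, 116.8 to 151.9, were all below the untreated and ICB pools, 179.1 to 246.8. It passed when macrophages with at least 2 border markers were left out (-0.58, edgeR adjusted p = 0.0421), where 1.97% of all genes were called. DESeq2 called 3 members for PT2385 (Cst7, Cd9 and Axl) and 977 of all genes, 6.82%. Without the second ICB pool edgeR called 3 members for PT2385, where it called 7.15% of all genes. Cd9 was at -0.57 ± 0.14 (edgeR adjusted p = 0.0908). Lpl and Itgax in the combination against ICB, -1.36 ± 0.74 and -1.21 ± 0.57, rested on the first ICB pool, whose levels were 67.5 and 156.9 against 12.4 and 37.0 in the second. Without the second ICB pool edgeR called 6 members there and 10.1% of all genes. The ICB group was then the first ICB pool alone, the library that stood apart, with its spread supplied by the other groups.

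In dendritic cells 0 of 9 members were called. PT2385 changed 0.0457% of 10936 genes, and each of the other 4 comparisons (ICB, then the combination against ICB and against untreated, then the interaction) 0% in edgeR, with 793, 819, 591 and 441 at an unadjusted p under 0.05 and 16, 16, 2 and 1 called by DESeq2. Lpl had too few UMIs to be tested in the additive model. The combination pools had the highest Apoe, 1201 and 1182, against 471.0 and 607.2 with ICB (1.14 ± 0.16, edgeR adjusted p = 0.168), and the T cells of the combination libraries were also the highest, at 1990.0 and 1181.0. The Apoe interaction was 2.43 ± 0.25 (edgeR adjusted p = 0.0546), and DESeq2 called Apoe in both comparisons, among 16 genes and as the only gene.

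Whether a treatment acted differently on microglia and macrophages was tested as a difference of effects. For PT2385 0.0728% of 12359 genes were called and 0 of 9 members, and for ICB 2.61% and 0 of 9 members in edgeR. DESeq2 called Cd9 for PT2385, among 118 genes (0.955%), and Axl for ICB, among 605 (4.90%). Axl had the nearest value for ICB, -1.09 ± 0.29 (edgeR adjusted p = 0.0686): its ICB effect was -0.89 in microglia and 0.25 in macrophages.

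The number of members seen per cell gave 1 summary value per library. At 3000 UMIs a microglial cell showed on average 3.95 members in the untreated library, 4.08 and 3.95 with PT2385, 3.61 and 3.86 with ICB, and 3.66 and 3.54 with the combination. The 4 libraries with ICB were all below the 3 without it, at 3.67 ± 0.14 (SD, n = 4) against 3.99 ± 0.08 (n = 3). The exact two-sided permutation test gave p = 0.0571, the smallest this design allows, and 0.343 after adjustment over 6 tests. The separation was not kept at 1500 UMIs, where the highest library with ICB was at 3.18 and the lowest without it at 3.01. It was also not kept without thinning, with doublets kept or with the stricter cell filter, with exact permutation p-values of 0.171 to 0.229 over these 4 settings. In each of them the second ICB pool was above the second PT2385 pool. Macrophages showed 3.13 to 3.57 members and dendritic cells 1.64 to 1.98, with exact permutation p-values of at least 0.343.

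Other genes of the programme were taken from fixed lists. Of 30 further disease-associated genes, 29 were tested for ICB in microglia: 0 rose and 4 fell, with a median of -0.40 against 0.01 over all genes, of which 5.35% were called. Among them Capg, an actin-capping protein, fell by 1.68 ± 0.32 (edgeR adjusted p = 0.0313) and Lilrb4a, an inhibitory receptor, by 1.40 ± 0.28 (edgeR adjusted p = 0.0364). Both were also lower in the combination against ICB, by 1.23 and 1.65, but the 2 comparisons share the combination and ICB libraries. The interaction of PT2385 and ICB for Capg was -1.68 ± 0.21, so its ICB value averages unlike differences with and without PT2385. Of 14 homeostatic genes outside the gate, 1 rose with ICB, P2ry13, a nucleotide receptor (0.73 ± 0.16, edgeR adjusted p = 0.0447), and 14 of 14 were higher, against 50.9% of all genes, with a median of 0.29. Of 16 genes of TREM2 signalling 0 rose and 5 fell, among them Ms4a6d (-0.83 ± 0.18, edgeR adjusted p = 0.0413) and the signalling protease Malt1 (-0.77 ± 0.15, edgeR adjusted p = 0.0320). The median of this list was -0.08 with ICB, with 6 of 16 higher. In the combination against ICB it was 0.02, with 9 of 16 higher. Of 18 tested lipid-handling genes 1 fell with ICB and 1 in the combination against ICB. In the combination against untreated, where 3.67% of all genes were called, 0 rose and 5 fell, among them Apoc2 (-3.06 ± 0.55, edgeR adjusted p = 0.0241). Macrophages express many of these genes strongly: Lgals3, which fell by 2.16 in the combination against untreated, was lower in microglia than in macrophages by -3.16. The macrophage-marker sums given above also differed between these groups, and their part in the list results was not tested.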

How the data were processed

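The deposited matrices hold UMI counts of 32285 genes per cell barcode for 7 libraries. Per the file headers they were made with Cell Ranger 7.0.0, while the submitters' processing notes give Cell Ranger 2.2.0, build GRCm39 and Seurat 5; other steps of the authors are not given in the sources used here. Cells entered with 300 genes or more and a mitochondrial share of UMIs up to 10%. Scrublet (scanpy 1.11.5) marked 11 doublets by its own threshold, so 1948 top-scoring cells were dropped instead (0.8% for every 1000 barcodes of a library). Counts were summed per library and gate, filtered with filterByExpr, scaled by TMM and tested with edgeR 4.0.16, with a threshold of 0.05; DESeq2 1.42.0 was an alternative. The additive model had 4 residual degrees of freedom and the model of group means 3. Simulated counts with known changes were run only through the additive PT2385 fit of each class, with dispersions from the trend. The other fits were not simulated, and nothing is concluded from this check. Named genes were all members, the list genes past the threshold with a mean of at least 20 CPM that had the 2 largest rises and falls per list, and the 3 genes most like each member. A ± value is an SE of the edgeR fit or, where marked, an SD between libraries, so it includes the spread between pools. Shares of cells are given without an error. The members and lists were chosen with earlier results of these data known. Border-marker, macrophage-marker and marker-number subsets were added after seeing the data. Results of 1 list gene and of 1 alternative gate are not reported here.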

Additional observations from a re-analysis of the deposited data

How the results depend on the processing

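Class differences of single members kept their direction and side of the threshold in 440 of 459 alternative values and treatment effects in 2244 of 2490. A further 4 class differences and 117 treatment effects changed sign without passing the threshold either way, such as Apoe in microglia, whose alternatives ran from -0.96 to 0.26 for PT2385 and from -1.56 to 0.44 for the combination against untreated. Only 2 reversed with a call on one side, both between microglia and dendritic cells in microglia with no macrophage marker: Gpnmb (-2.07) and Axl (-0.16). Of the class differences 4 gained and 9 lost a call, and of the treatment effects 105 gained and 24 lost one. The fit without a filter on low counts called 4 members in microglia for PT2385, 5 for ICB, 5 for the combination against ICB, 5 against untreated and 6 for the interaction, in dendritic cells 1, 3, 2, 2 and 1, and 3 and 4 for the differences of the PT2385 and ICB effects between classes, where it called 0.329% to 10.7% of all genes. In 5 of its 8 fits edgeR's prior degrees of freedom were infinite, as in none of the other 128 edgeR fits, so a gene's own spread had no weight: for Cst7 in microglia the dispersion used was 0.651 where its own was 10.0, against 5.16 used with the filter. Those calls are not read as support. In microglia DESeq2 kept the calls of Lpl and Axl in the combination against ICB, where it called 323 genes. DESeq2 called 3 members in microglia for ICB, 3 against untreated and 2 for the interaction, 3 in macrophages for PT2385, 1 and 1 in dendritic cells for the combination against ICB and the interaction, and 1 for each difference of effects, where it called 0.00861% to 8.92% of all genes. With doublets kept, ICB called 1 and the combination against untreated 3, of 8.24% and 5.61% of all genes called. The stricter gate left 1 call against ICB (1.69% of all genes) and gave 1 for PT2385 in macrophages (1.64%). RLE factors and the stricter cell filter each gave 1 (Apoe) for the dendritic interaction, the only gene called. Of the alternatives chosen after seeing the data, microglia with no macrophage marker gave 0 calls against ICB and 0 against untreated, microglia with 9 or 10 markers gave 1 for ICB and 0 and 0 for those (7.99%, 1.10% and 3.41% of all genes called), and macrophages without border-marker cells gave 1 for PT2385.

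Leaving out 1 library at a time gave, in microglia, 0 to 2 members called for PT2385, 0 to 4 for ICB, 0 to 4 against ICB, 0 to 3 against untreated and 0 to 3 for the interaction. In macrophages it gave 0 to 3 for PT2385, 0 to 6 against ICB and 0 to 1 for the interaction, in dendritic cells 0 to 1 for ICB, against ICB and for the interaction, and for the differences of effects 0 to 1 (PT2385) and 0 to 3 (ICB). Without the untreated library the PT2385 and ICB effects are the combination against ICB and against PT2385. The cause of these changes was not tested. For the number of members per cell no alternative could pass the threshold, since the smallest exact two-sided p is 0.0571, and 0.1 or 0.133 with 1 library left out. With 1 library left out the PT2385 difference ranged from -0.102 to 0.0843 in microglia and -0.123 to 0.0436 in dendritic cells, and the ICB difference from -0.0572 to 0.0869 in macrophages and -0.0035 to 0.107 in dendritic cells. Without thinning the PT2385 difference was 0.0984 in macrophages and 0.0744 in dendritic cells, and the dendritic ICB difference was -0.0455 with doublets kept and -0.0336 with the stricter cell filter. No paired analysis was possible because pool numbers were given in the order of the records and pair no mice. In all dendritic cells together Lpl had 36 UMIs and Gpnmb 130, so at this depth only large changes of these 2 genes were detectable there.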

Other observations

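Members differed between the dendritic cell subsets that the gate brought together. In cells with type 1 markers (466 cells) Itgax was at 114.2 to 155.3 CPM over the 7 libraries, and in cells with both Ccr7 and Fscn1, the markers of mature migratory dendritic cells (711 cells), it was at 3.3 to 23.0. Tyrobp was at 802 to 1225 in the former and 352 to 556 in the latter, without overlap, and Axl at 29.1 to 69.4 and 5.0 to 40.3, with overlap. Cd9 was at 145.2 to 266.7 and 118.4 to 165.0. The subsets were cut from genes of the gate and were not tested.

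Among macrophages, cells with the monocyte markers Ly6c2 and Chil3 (2757 cells) had a median Apoe level over libraries of 13953 and a Trem2 level of 299. Cells with Arg1 but neither monocyte marker (694 cells, as few as 22 in a library) had 22826 and 509. Cells with at least 2 border macrophage markers (1202 cells) had 29203 and 544. Over libraries, the Apoe range of the monocyte-marker cells overlapped those of both other subsets, and the Trem2 range did not. Gpnmb had its highest median, 131.0, in the Arg1 cells, against 60.3 in the monocyte-marker cells, with ranges that overlapped. These macrophage subsets were not tested. Cycling microglia (134 cells, as few as 4 in a library) had a median Cst7 level of 168.1 against 82.5 in the others, and a Trem2 level of 690.5 against 1202, with ranges over libraries that overlapped for both.

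The gene whose summed level over the 21 sums of library and class was most like each member was Tlr2 for Apoe (Pearson r = 0.986), Zswim6 for Trem2 (0.989), Fcer1g, another adaptor of receptors, for Tyrobp (0.990), Ddx1 for Lpl (0.942), Itga5 for Gpnmb (0.884), Tns3 for Cst7 (0.953), Ms4a4a for Axl (0.961), Cd244a for Itgax (0.947) and Clint1 for Cd9 (0.988), out of 7458 candidates. The 21 sums share libraries and fall into 3 classes, so these values describe the order of classes. Ranking by Spearman's rho kept between 0 and 2 of the first 3 genes of a member.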
